A study of Mus musculus with 6 samples.

Results

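*Scrt1*, *Scrt2*, *Snai1*, *Snai2*, *Snai3* and *Insm1* encode zinc finger transcriptional repressors that share a short N-terminal SNAG domain. In RNA-seq data of whole male mouse embryos at E9.5, transcripts of the Scratch genes *Scrt1* and *Scrt2* were 5.31-fold and 4.87-fold higher in embryos homozygous for a mutation of *Smchd1* than in wildtype embryos, and *Insm1* was 1.90-fold higher. The Snail genes *Snai1* and *Snai2* were at 1.07 and 0.997 of their wildtype levels, and *Snai3* was too low to compare. The 6 genes were found in the expression table by symbol, and they are 6 of the 24207 loci listed there. They were selected with their values in these embryos known, so the differences between genotypes given for them are descriptions and carry no test.

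The data came from 3 Smchd1+/+ embryos and 3 Smchd1MommeD1/MommeD1 embryos, 6 in all. MommeD1 is an ENU-induced nonsense mutation of *Smchd1*, the gene of a chromosomal protein of the SMC family that is best known for its role in X inactivation. It is present in the germline, so every cell of the homozygous embryos carried it, and the embryos came from crosses between heterozygous carriers. The labels give the background strain of all 6 as C57Bl6/J x FVB/n, whereas the text of the study describes backcrossing to another strain, and the difference could not be resolved here. The table holds 1 pooled FPKM value (fragments mapped to a transcript, scaled to its length and to the size of the library) for each genotype. The spread between embryos is therefore unknown, and no value below has a replicate error.

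Scratch proteins are known from newborn neurons as they leave the cell cycle and migrate away from the ventricular zone. INSM1 appears at the same step in neurons and in developing endocrine cells of the pancreas, gut and adrenal medulla, where it works with the proneural bHLH factors. Snail (*Snai1*) and Slug (*Snai2*) are best known for repressing E-cadherin during gastrulation, neural crest migration and other epithelial-mesenchymal transitions. The SNAG domain of Snail and INSM1 is known to recruit the histone demethylase LSD1 with CoREST, and the zinc fingers bind DNA, in the Scratch and Snail proteins at E-box sequences. After these known sites, *Scrt1*, *Scrt2* and *Insm1* are called the neuronal members here, and *Snai1* and *Snai2* the mesenchymal members.

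The start of the coding sequence is shown for the Scratch genes and the abundant Snail genes, because it is the stretch that encodes the shared domain. The lines give the first 60 bases of coding sequence, 5′ to 3′ on the coding strand, read from the GENCODE M21 annotation of GRCm38 (mm10), and capitals mark bases identical in the 4 genes.
Scrt1: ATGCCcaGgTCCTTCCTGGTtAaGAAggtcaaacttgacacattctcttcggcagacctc
Scrt2: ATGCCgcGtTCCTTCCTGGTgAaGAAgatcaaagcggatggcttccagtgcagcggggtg
Snai1: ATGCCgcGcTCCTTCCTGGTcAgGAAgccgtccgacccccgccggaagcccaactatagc
Snai2: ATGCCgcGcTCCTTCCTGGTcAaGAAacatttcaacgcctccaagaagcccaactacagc

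These bases lie at chr15:76521646-76521705 (minus strand) for *Scrt1*, chr2:152082050-152082109 (plus strand) for *Scrt2*, chr2:167538290-167538349 (plus strand) for *Snai1* and chr16:14705974-14706033 (plus strand) for *Snai2*. Of the 60 positions, 21 were the same in the 4 genes, and all 21 fell within the first 27 bases. None of the last 33 positions was shared by the 4. *Snai1* and *Snai2* were identical at 48 positions (80%), *Scrt1* and *Scrt2* at 36 (60%), and *Scrt1* and *Snai1* at only 26 (43.3%), the lowest of the 6 pairs. The annotated transcript has 2 exons in each Scratch gene and 3 exons in *Snai1* and *Snai2*.

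The *Smchd1* transcript was examined first, as a check of the genotypes. It was listed at 2.12 FPKM in the mutant and 34.0 FPKM in the wildtype, 16.1-fold lower in the mutant. The table names its columns M and P without explanation, and they were taken as mutant and wildtype from the study's own copy of these values, which gives the genotypes in full.

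Of the 24207 loci, 23097 carried a gene symbol, and 12960 of these had a value above 0 in both genotypes and a mean of at least 0.5 FPKM. Their median log2 ratio of mutant over wildtype was -0.003, and the central 95% lay between -0.48 and 0.80. Loci above and below 0 were thus nearly equal in number, which is the background for counts of higher or lower genes below. At least 2-fold higher in mutant embryos were 198 loci (1.53%), and at least 2-fold lower were 58 (0.448%). Among the 6 repressor genes, 5 passed the filter on level and *Snai3* did not. *Scrt1* and *Scrt2* were past 2-fold higher, *Insm1* was just short of it, and no member that passed was 2-fold lower. Since the genes were chosen on this contrast, nothing is read from these counts against the background.

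*Scrt1*, which encodes Scratch 1, lies at chr15:76516203-76522129 (mm10). It was listed at 1.29 FPKM in mutant against 0.243 FPKM in wildtype embryos, a 5.31-fold difference and a log2 ratio of 2.41. Of all filtered loci, only 7 had a higher ratio. The wildtype value was under the 0.5 FPKM limit, so that *Scrt1* passed the filter through its level in the mutant. With 1 FPKM added to each value, its log2 ratio was 0.88, short of 2-fold, and a filter at 1 FPKM leaves it out. In a whole embryo these levels depend on how many cells make a transcript, and more or fewer cells of a type cannot be told apart from more or less RNA per cell.

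*Scrt2*, its paralogue, lies at chr2:152081529-152095802. Its level was 3.03 FPKM in the mutant and 0.621 FPKM in the wildtype, 4.87-fold apart with a log2 ratio of 2.28. Of all filtered loci, 11 had a higher ratio. With 1 FPKM added to each value, the log2 ratio of *Scrt2* was 1.31, still past 2-fold. The log2 ratios of the Scratch genes differed by 0.12. *Scrt2* was the more abundant in both genotypes, by 2.35-fold in mutant and 2.56-fold in wildtype embryos, so that the pair kept nearly the same proportion while both levels were higher in the mutant.

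*Insm1*, on chr2:146221997-146225018, was listed at 4.19 FPKM in mutant against 2.20 FPKM in wildtype embryos. The difference was 1.90-fold with a log2 ratio of 0.93, and 232 loci had a higher ratio. It was the most abundant of the neuronal members in both genotypes. *Insm1* exceeded *Scrt2* by 3.55-fold in wildtype and by 1.39-fold in mutant embryos, so that the 3 neuronal repressors were closer to each other in level in the mutant.

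*Snai1*, at chr2:167538195-167542813, was the most abundant member, with 22.9 FPKM in the mutant and 21.4 FPKM in the wildtype (1.07-fold). *Snai2*, at chr16:14705859-14709382, was listed at 7.58 FPKM in mutant against 7.61 FPKM in wildtype embryos (0.997-fold). Among the ratios of all filtered loci, *Snai1* stood at percentile 69.8 and *Snai2* at percentile 49.8, and their ratio to each other was 3.02 in mutant and 2.82 in wildtype embryos.

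*Snai3*, the remaining Snail gene, lies at chr8:122454206-122460692. It was listed at 0.0717 FPKM in the mutant and 0.117 FPKM in the wildtype, under the filter, and the authors' program marked it as too low for a comparison. The INSM paralogue *Insm2*, which is not among the 6, was also under the filter, with 0.119 FPKM in mutant against 0.0167 FPKM in wildtype embryos at chr12:55598917-55602017.

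**Figure D1:**
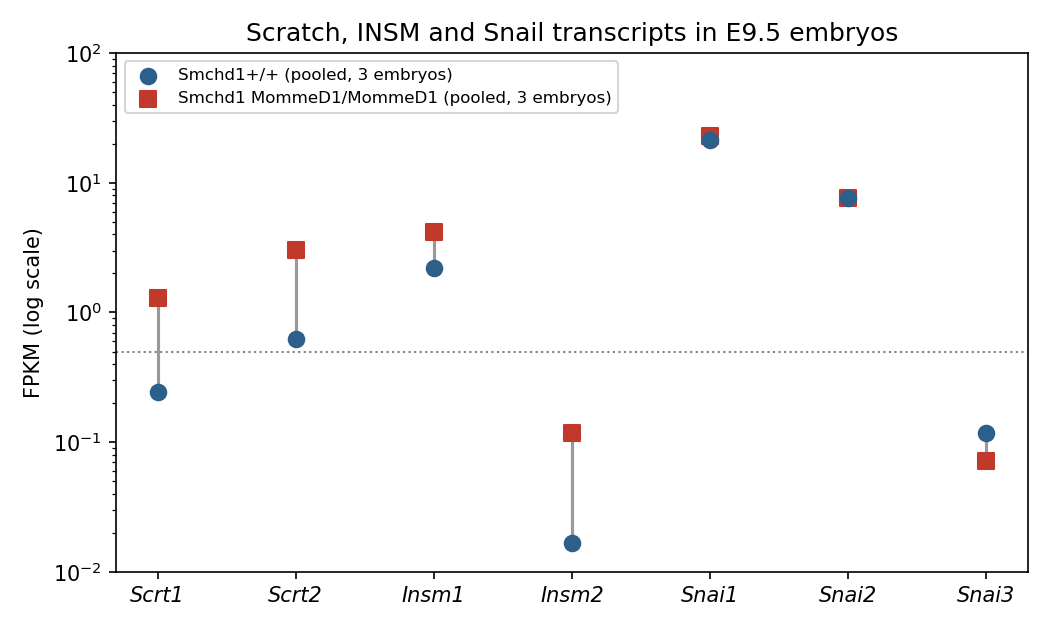
FPKM (vertical log axis) of the Scratch, INSM and Snail genes in Smchd1+/+ (circles) and Smchd1MommeD1/MommeD1 (squares) embryos. Each point is the authors' pooled value of 3 embryos, without an error, and the dotted line marks 0.5 FPKM. *Scrt1*, *Scrt2* and *Insm1* are separated by 5.31-, 4.87- and 1.90-fold, while the points of *Snai1* and *Snai2* overlap.

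How many reads stand behind these values was estimated from the smallest steps between low FPKM values, since the table gives no counts. *Scrt1* rested on about 290 to 357 reads in the mutant and 48 to 81 in the wildtype libraries, and *Scrt2* on about 520 to 641 and 93 to 158. From the lower read estimates, the 95% counting interval of the fold difference (exact Clopper-Pearson, counting error only) was 3.9 to 7.36 for *Scrt1* and 3.9 to 6.14 for *Scrt2*. For *Insm1* it was 1.66 to 2.19.

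The 2 abundant Snail genes had narrower intervals, 0.995 to 1.14 for *Snai1* and 0.896 to 1.11 for *Snai2*. *Snai3* had only about 6 to 7 reads in mutant and 8 to 13 in wildtype libraries, with an interval of 0.175 to 2.01, so that a difference between genotypes was not detectable at this depth. *Insm2* had about 16 to 19 and 2 to 3 reads, a ratio of 7.12 and an interval of 1.67 to 63.8. These intervals do not contain the variation between embryos, which may be much larger.

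The order of levels was the same in both genotypes, namely *Snai1*, *Snai2*, *Insm1*, *Scrt2*, *Scrt1* and *Snai3*, on the FPKM scale, which is per transcript length. The summed level of the 6 genes was 39.0 FPKM in the mutant and 32.2 FPKM in the wildtype. *Scrt1*, *Scrt2* and *Insm1* together made up 21.8% of this sum in the mutant and 9.52% in the wildtype. Their sum was 2.77-fold higher in mutant embryos (8.51 against 3.07 FPKM), whereas *Snai1* and *Snai2* together amounted to 30.5 and 29.0 FPKM. The mean log2 ratio was 1.87 for the neuronal and 0.04 for the mesenchymal members, 1.83 apart. With 1 FPKM added to each value, this difference was 0.92.

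The proportions between the subfamilies differed accordingly. *Snai1* exceeded *Scrt2* by 34.5-fold in wildtype and by 7.56-fold in mutant embryos, and *Scrt1* by 88.3-fold and 17.8-fold. Against *Insm1* its excess was 9.73-fold in wildtype and 5.46-fold in mutant embryos.

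Ratios far from 1 are more frequent among low loci. Of 2134 filtered loci with a mean of 0.5 to 2 FPKM, the class of *Scrt1* and *Scrt2*, 6.37% were at least 2-fold higher in the mutant. The share was 1.16% of 3621 loci with a mean of 2 to 8 FPKM, which include *Insm1* and *Snai2*, and 0.278% of 7205 loci with a mean of 8 FPKM or more, which include *Snai1*. The plot of ratio against level shows both Scratch genes in the sparse upper part of the lowest class.

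**Figure D2:**
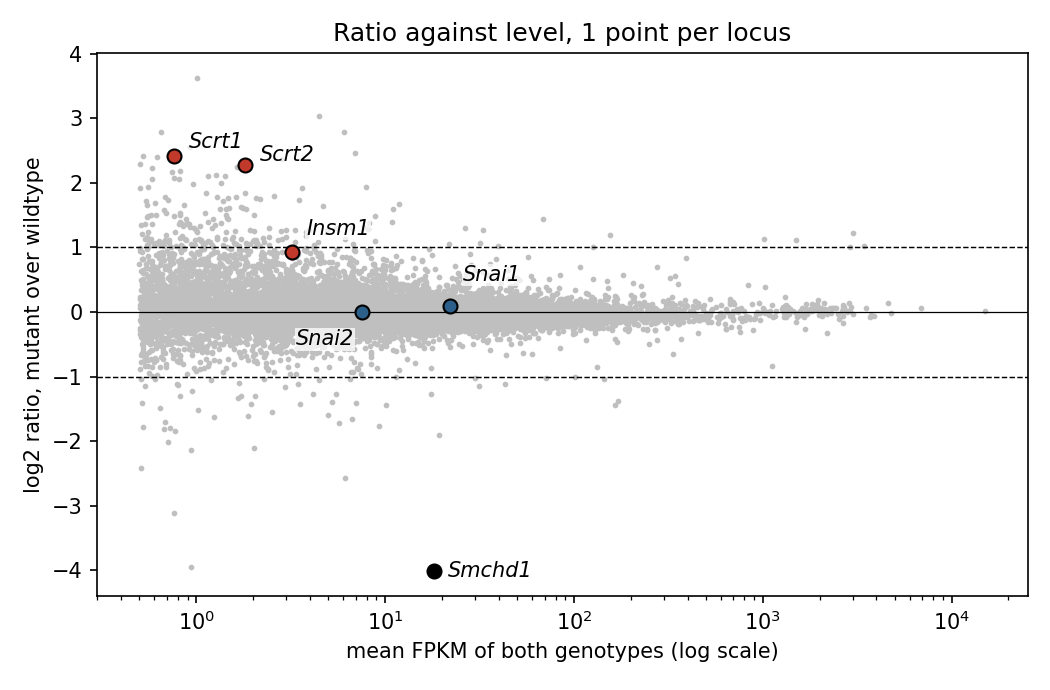
Log2 ratio of mutant over wildtype FPKM (vertical axis) against the mean FPKM of both genotypes (horizontal log axis) for the 12960 filtered loci, 1 grey point each. Dashed lines mark 2-fold. *Scrt1* (2.41) and *Scrt2* (2.28) lie above the upper line, *Insm1* (0.93) just below it, *Snai1* (0.09) and *Snai2* near 0, and *Smchd1* at -4.01.

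The 5 loci most like the Scratch pair, by distance from its mean in log2 level and log2 ratio, were *Vmn1r90*, a vomeronasal receptor gene, *C1qtnf3*, *Pcdhb22* of the clustered protocadherins, *Apoc1*, an apolipoprotein gene, and the unnamed transcript *1700030C10Rik*. Their log2 ratios were between 2.0 and 2.56. The 5 nearest to *Insm1* were the chemokine gene *Cxcl14*, *Moxd1*, *Heyl*, which encodes a bHLH protein of the Notch pathway, *Fbxo44* and *Tnnc2*, the troponin C gene of fast muscle, with log2 ratios of 0.92 to 1.01. *Cxcl14*, the closest, was listed at 4.22 FPKM in mutant against 2.23 FPKM in wildtype embryos. The likeness rests on 2 pooled values per locus and is a description only.

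The neighbours of the repressor genes were examined because 3 of the genes share chromosome 2. *Insm1* and *Scrt2* are 5.86 Mb apart there, and *Scrt2* and *Snai1* 15.4 Mb, with *Scrt2* between the others. No member overlaps another locus of the table. Of the 6 filtered loci flanking *Scrt1*, 3 on each side, none was past 2-fold, and their log2 ratios were -0.18 to 0.54. The nearest, *Dgat1*, lies 4.38 kb from *Scrt1* and had a log2 ratio of -0.18.

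Around *Scrt2*, the 6 flanking loci had log2 ratios of -0.25 to 1.12, and 1 was past 2-fold. It was *Rspo4*, a gene of the R-spondin family of Wnt signal enhancers, 205 kb away, with 2.76 FPKM in the mutant and 1.28 FPKM in the wildtype. The nearest, *Srxn1*, 9.79 kb away, had a log2 ratio of 0.46. None of the loci flanking *Insm1* (-0.24 to 0.10), *Snai1* (-0.03 to 0.25), *Snai2* (-0.29 to 0.07) or *Snai3* (-0.16 to 0.35) was past 2-fold. The neighbours named here beyond *Rspo4* were picked for distance, and *Rspo4* after its value was seen.

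**Figure D3:**
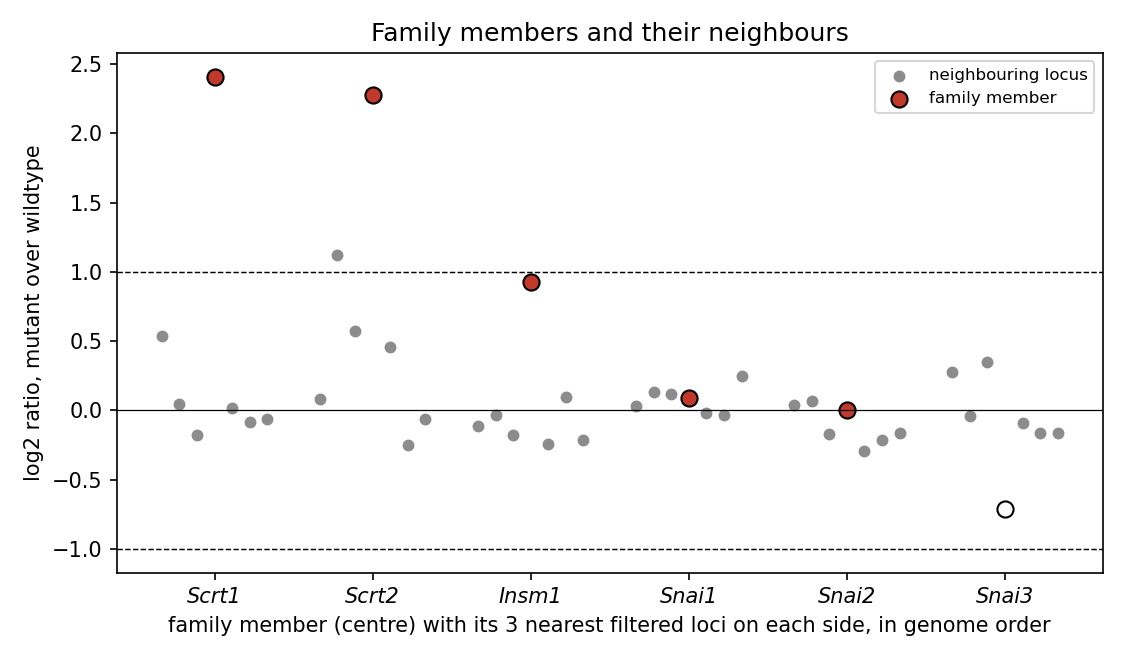
Log2 ratio of mutant over wildtype FPKM (vertical axis) of each family member (large point, open for *Snai3*, which was under the filter) and of the 3 nearest filtered loci on each side in genome order (small grey points). Dashed lines mark 2-fold. *Scrt1*, *Scrt2* and *Insm1* stand above all of their neighbours, which lie between -0.25 and 1.12, while *Snai1* and *Snai2* lie among theirs.

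Other genes of the same pathway were counted from lists. All lists, and the markers drawn from them, were chosen with earlier results of these data known. Their counts and medians, here and below, are therefore descriptions, and nothing is read from them against the background. The SNAG list holds 11 genes, of which 6 passed the filter. Among these, *Scrt1* and *Scrt2* were past 2-fold, both higher, while *Insm2* was under the filter and not counted. The shares were 1.53% of all filtered loci and 6.37% of those with a mean of 0.5 to 2 FPKM. Both Scratch genes were chosen on this contrast, so nothing is read from the count. Of the 5 relatives outside the 6 repressors, only *Gfi1b*, a repressor of blood progenitors, passed the filter, with 1.81 FPKM in mutant against 1.32 FPKM in wildtype embryos. All 16 genes of the cofactors that bind the SNAG domain or its LSD1 and CoREST complex passed it, with a median log2 ratio of 0.03. None was past 2-fold in either direction, beside 1.53% of all filtered loci higher and 0.448% lower. At shares this low, nothing is read from that absence. *Kdm1a*, the LSD1 gene, was listed at 57.9 FPKM in the mutant and 58.6 FPKM in the wildtype, and *Rcor2*, a CoREST gene, at 72.4 and 66.1 FPKM. The last pair was named after their values were seen.

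Proneural bHLH factors commit progenitors to a neuronal fate. Of 13 on the list, 10 passed the filter, and all 10 were higher in the mutant, with a median log2 ratio of 0.95. Past 2-fold higher were 4, and 0 were 2-fold lower, beside 1.53% and 0.448% of all filtered loci. *Neurog3* was listed at 0.875 FPKM in mutant against 0.229 FPKM in wildtype embryos, and *Nhlh2*, a factor of newly formed neurons, at 5.76 and 1.53 FPKM. The others past 2-fold were *Nhlh1* (7.13 and 2.28 FPKM) and *Atoh1* (1.28 and 0.497 FPKM). *Neurog3* and *Atoh1* passed the filter through their levels in the mutant, and the count was 2 with 1 FPKM added to each value or with a filter at 1 FPKM. The lowest ratio was that of *Olig2* (5.71 and 5.09 FPKM). Of the 10 proneural genes past the filter, none had a ratio above that of either Scratch gene, and 5 were above *Insm1*.

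Genes of newborn neurons showed the same direction, in a list likewise chosen with earlier results of these data known. All 31 on the list passed the filter and were higher in the mutant, with a median log2 ratio of 0.94, and 13 were past 2-fold higher, beside 1.53% of all filtered loci. The count was 11 with a filter at 1 FPKM and 7 with 1 FPKM added to each value. *Cntn2*, which encodes the axonal adhesion molecule TAG-1, had the highest ratio, with 4.76 FPKM in mutant against 0.925 FPKM in wildtype embryos. *Tubb3*, the neuronal beta-tubulin gene, was the most abundant, with 99.9 FPKM in the mutant and 37.0 FPKM in the wildtype.

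*Dcx*, a microtubule-binding protein gene of migrating neurons, was listed at 5.37 and 1.62 FPKM, and the neurofilament gene *Nefm* at 16.6 and 5.51 FPKM. The zinc finger genes *Myt1* and *St18* had 2.0 and 0.662 FPKM, and 1.23 and 0.422 FPKM, and *St18* passed the filter through its level in the mutant. *Lhx1*, with 1.27 and 1.15 FPKM, had the lowest ratio. Of the 31 genes, 1 lay above *Scrt2*, none above *Scrt1*, and 16 above *Insm1* in ratio.

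The summed level of 10 markers of newborn neurons (*Tubb3*, *Dcx*, *Elavl3*, *Elavl4*, *Stmn2*, *Nefm*, *Nefl*, *Ina*, *Cntn2* and *Map2*) was 203 FPKM in mutant against 79.9 FPKM in wildtype embryos, 2.54-fold apart, and 7 of the 10 were past 2-fold higher, beside 1.53% of all filtered loci. Relative to this sum, *Scrt1* was 2.09-fold and *Scrt2* 1.92-fold higher in mutant embryos, and *Insm1* was at 0.749 of its wildtype proportion. The sum of all 31 genes was 498 FPKM in mutant against 300.3 FPKM in wildtype embryos, 1.66-fold apart. Relative to that sum, chosen after seeing the data, the values were 3.2 for *Scrt1*, 2.94 for *Scrt2* and 1.15 for *Insm1*, so that the direction for *Insm1* depends on which neuronal genes are summed. The neuronal markers thus moved in the same direction as the Scratch genes and *Insm1*, and their part in these differences was not tested.

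Neural progenitor genes had a smaller median log2 ratio than these neuronal lists, a difference that was not tested. Of 15, all past the filter, 12 were higher and 3 lower, and the median log2 ratio was 0.17. *Fabp7*, a radial glia gene, was the only gene past 2-fold, with 43.1 FPKM in the mutant and 20.6 FPKM in the wildtype. Beside it, 1.53% of all filtered loci were 2-fold higher, and 0.278% of those with a mean of 8 FPKM or more, its class. The most abundant, *Ccnd1*, had 108 and 96.4 FPKM, and *Hes1*, a Notch target with the lowest ratio, 21.8 and 24.4 FPKM. The 5 progenitor markers (*Sox2*, *Sox1*, *Nes*, *Pax6* and *Fabp7*) summed to 176 FPKM in mutant against 133 FPKM in wildtype embryos. Besides *Fabp7*, *Nes* was higher in the mutant (59.1 and 41.2 FPKM). *Sox2*, *Sox1* and *Pax6* were at 1.08, 1.04 and 0.931 of their wildtype levels.

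**Figure D4:**
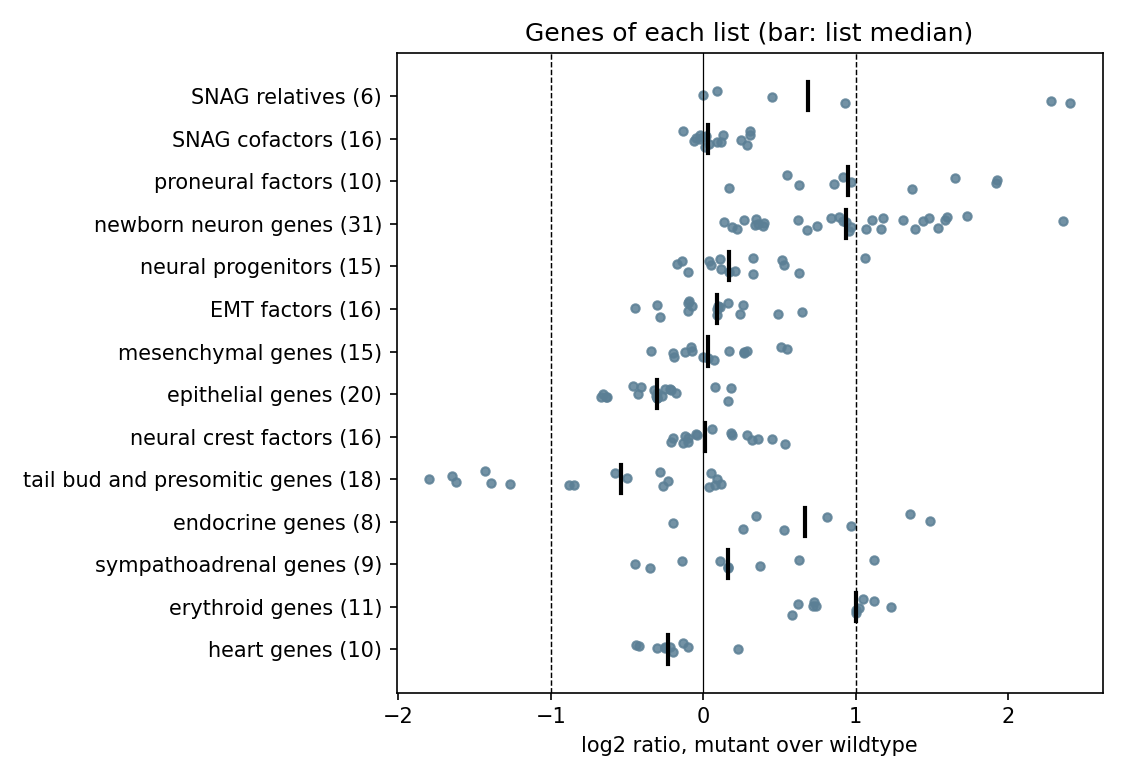
Log2 ratio of mutant over wildtype FPKM (horizontal axis) of every filtered gene of each list, 1 point per gene, with the number of genes in parentheses, the list median as a black bar and dashed lines at 2-fold. All 10 proneural and all 31 newborn neuron genes lie to the right of 0, the 16 genes of SNAG cofactors and the 16 neural crest genes lie around 0, and 6 of the 18 tail bud and presomitic genes lie below -1. The lists were chosen with earlier results of these data known.

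The programme with which *Snai1* and *Snai2* are usually associated contained no gene past 2-fold among those that passed the filter. Of all filtered loci, only 1.53% were 2-fold higher and 0.448% lower. At shares this low, nothing is read from the absence of such genes, here or in any other list. Among 17 factors of epithelial-mesenchymal transition (EMT), the Snail genes excluded, 16 passed the filter, 9 were higher and 7 lower, with a median log2 ratio of 0.09. *Tcf3*, the most abundant, was listed at 91.4 FPKM in the mutant and 86.0 FPKM in the wildtype. The extremes were *Twist2*, a mesenchymal bHLH gene, with 12.3 and 7.83 FPKM, and *Klf8*, with 0.713 and 0.975 FPKM.

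Of the mesenchymal genes 15 passed the filter, with a median log2 ratio of 0.03 and none past 2-fold, while 1 gene was past 2-fold lower when the filter was lowered to 0.1 FPKM. *Vim*, the vimentin gene, was both the most abundant and the highest in ratio, with 410 FPKM in mutant against 279 FPKM in wildtype embryos, and the fibronectin gene *Fn1* had the lowest ratio, with 87.0 and 110 FPKM. The 16 neural crest factors had a median log2 ratio of 0.01, 8 higher and 8 lower, none past 2-fold. *Pax7* had the highest ratio (3.53 and 2.42 FPKM), *Msx1* the lowest (a log2 ratio of -0.21), and *Rhob*, a small GTPase gene, was the most abundant (41.5 and 39.8 FPKM).

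Epithelial genes, which include known Snail targets, were mostly lower in mutant embryos, though none was past 2-fold. At a threshold of 1.5-fold 4 were lower, beside 205 of the 12960 filtered loci. Of 20 past the filter, 17 were lower and 3 higher, and the median log2 ratio was -0.30, beside -0.003 over all filtered loci. *Krt8*, a keratin gene and the most abundant, had 46.8 FPKM in the mutant and 73.1 FPKM in the wildtype. *Spint1*, a membrane protease inhibitor gene, had the lowest ratio (4.01 and 6.39 FPKM) and *Esrp2*, an epithelial splicing factor gene, the highest (1.15 and 1.02 FPKM). *Cdh1*, the E-cadherin gene, named here after its value was seen, was listed at 9.70 FPKM in mutant against 11.7 FPKM in wildtype embryos.

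*Snai1* is also known as an oscillating gene of the presomitic mesoderm, so genes of the tail bud and presomitic mesoderm were counted. Of 18 past the filter, 13 were lower and 5 higher in the mutant, with a median log2 ratio of -0.54, and 6 were past 2-fold lower, beside 0.448% of all filtered loci. The count was 5 with a filter at 1 FPKM and 4 with 1 FPKM added to each value. *Ripply2* (0.327 and 1.13 FPKM), *Cdx2* (3.22 and 10.1 FPKM), *Hes7* (0.922 and 2.83 FPKM), *Nkx1-2* (1.92 and 5.18 FPKM) and *Msgn1* (2.88 and 7.57 FPKM) had the lowest ratios, and *Ripply2* passed the filter through its level in the wildtype. *Hes7* is the central repressor of the segmentation clock, and *Msgn1* a bHLH activator of presomitic fate. *Dusp6*, the most abundant, had 38.6 FPKM in the mutant and 36.6 FPKM in the wildtype, and *Lfng*, with the highest ratio, 17.2 and 15.9 FPKM. The 19 genes of the list summed to 0.832 of their wildtype level (134 against 161 FPKM). Among them, the 5 markers *T*, *Tbx6*, *Msgn1*, *Hes7* and *Wnt3a* summed to 11.5 FPKM in mutant against 24.6 FPKM in wildtype embryos, 0.468 of the wildtype level.

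The *Snai1* promoter is shown because Snail proteins are known to bind E-boxes of the kind found in it. The run gives the 250 bases before the RefSeq start of the gene (GRCm38.p6, chr2:167537945-167538194, plus strand), with the only match to CAGGTG or its reverse complement CACCTG in capitals.
Snai1: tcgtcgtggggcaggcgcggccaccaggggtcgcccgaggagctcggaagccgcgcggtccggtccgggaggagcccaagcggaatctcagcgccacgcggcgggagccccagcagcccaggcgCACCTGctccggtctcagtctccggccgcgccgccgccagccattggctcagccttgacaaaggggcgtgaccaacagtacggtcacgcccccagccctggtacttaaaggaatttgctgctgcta
The match begins 126 bases before the start. Of 32851 promoters of the same length, 5657 (17.2%) held at least 1 match on either strand. A match is a description of the sequence, and no binding was measured in these embryos.

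INSM1 is also a regulator of endocrine and sympathoadrenal cells, so their genes were counted. Of 13 endocrine genes, which include the neuronal genes *Isl1* and *Neurod1*, 8 passed the filter, 7 of them higher, with a median log2 ratio of 0.67, and 2 were past 2-fold higher. These were *Gcg*, the glucagon gene (0.851 and 0.302 FPKM), and *Chgb*, the gene of a secretory granule protein (0.839 and 0.328 FPKM). *Isl1*, the most abundant, had 8.58 FPKM in the mutant and 6.72 FPKM in the wildtype, and *Pcsk1*, a prohormone convertase gene, the lowest ratio (0.491 and 0.566 FPKM). Both *Gcg* and *Chgb* passed the filter through their levels in the mutant, in the class of 0.5 to 2 FPKM in which 6.37% of loci were 2-fold higher. The count was 0 with 1 FPKM added to each value or with a filter at 1 FPKM. The defining endocrine marker *Ins2* was listed at 0 in both genotypes, and *Pax4* was under 0.1 FPKM.

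Of 10 sympathoadrenal genes, 9 passed the filter, with a median log2 ratio of 0.16. *Th*, which encodes tyrosine hydroxylase of catecholamine synthesis, was past 2-fold higher, with 0.935 FPKM in mutant against 0.430 FPKM in wildtype embryos. It too passed through its level in the mutant, in the same class of loci, and was not past 2-fold with 0.1 FPKM added to each value. *Hand1*, the most abundant, had 15.8 and 20.1 FPKM, and *Ret*, a receptor gene with the lowest ratio, 2.18 and 2.97 FPKM.

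Markers of other tissues differed between the genotypes as well. All 11 erythroid genes past the filter were higher in the mutant, with a median log2 ratio of 1.0. Past 2-fold higher were 5 of the 11, beside 1.53% of all filtered loci. These were the globin genes *Hbb-y* (4191 and 1787 FPKM), *Hbb-bh1* and *Hba-x* (4602 and 2274 FPKM, the most abundant), *Hba-a1*, and *Alas2* of haem synthesis. *Hba-a1* was listed in a joint locus with *Hba-a2*. *Hbb-bh1* (3845 and 1918 FPKM) was at the 2-fold threshold. The count was 4 when the totals over loci with a symbol were made equal. The lowest ratio was that of *Klf1* (6.47 and 4.31 FPKM). The 4 erythroid markers summed to 12653 FPKM in the mutant and 5988 FPKM in the wildtype, 2.11-fold apart.

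The 10 heart genes were at a median log2 ratio of -0.23, 9 of them lower and none past 2-fold. *Myl7*, the most abundant, had 317 FPKM in mutant against 425 FPKM in wildtype embryos, *Myl2* the highest ratio (104 and 88.6 FPKM) and *Gata4* the lowest (7.0 and 9.48 FPKM). The erythroid markers were higher and the heart and tail bud markers lower in the same embryos in which the Scratch genes and *Insm1* were higher, and their part in that difference was not tested.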

How the data were processed

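RNA was from whole flash-frozen embryos, with genotypes read from the yolk sac. Per the labels and the study's methods, the authors sequenced nondirectional single-end 100 bp libraries and used TopHat2 2.0.6, Bowtie2 2.0.2 and Cuffdiff 2.0.2 with mm10. The annotation release is not given in the sources used here. The authors deposited 1 FPKM value per genotype and locus, pooled over 3 embryos. Reads counted without strand cannot be told apart from those of an antisense partner. Columns with the authors' fold changes, test statistics, p-values and q-values, and their significance calls, were not used.

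With Python 3.11.15, pandas 2.3.3 and scipy, log2 ratios of mutant over wildtype FPKM were computed without a pseudocount, for loci with a symbol, both values above 0 and a mean of at least 0.5 FPKM. A locus was counted at 2-fold or more. No test was possible, since 1 pooled value per genotype leaves no spread. The counting step was run on values into which known differences had been put. This checks the calculation only, not noise at low levels or between embryos. Members and gene lists were chosen with earlier results of these data known. Of the lists, the genes named were the most abundant, the highest and lowest in ratio, and up to 5 past 2-fold in each direction, besides all repressors of the group, and others are marked as named after their values were seen.

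The depth of each library is not in the table. Genes with a single RefSeq transcript of over 1000 bases were used. Their FPKM, multiplied by the length less 200 bases, in kilobases, gathered in peaks between 0.01 and 0.023. In the mutant, 53.8% of 392 genes fell in 0.015 to 0.0155, which is 3.85% of that range. The other mutant peaks were weak, with 5.36% of genes in 0.0165 to 0.017 (3.85% of the range) and 17.1% in 0.0175 to 0.019 (11.5%). In the wildtype, 73.4% of 372 genes fell in 3 peaks (0.012 to 0.014, 0.0165 to 0.0175 and 0.0205 to 0.0215) that cover 30.8% of the range. The first of these was broad, with 26.1% of genes in 15.4% of the range. The 10th to 90th percentile within the range was 0.0151 to 0.0186 in the mutant and 0.0125 to 0.0212 in the wildtype, and this step was taken as 1 read. If each pooled value is a mean over 3 libraries, the steps imply 17900000 to 22100000 and 15700000 to 26600000 mapped fragments per library. The range, the peaks and the estimate were chosen after seeing the data, the estimate is approximate, and it covers counting error only. Sequences were read from GENCODE M21 and RefSeq, and of the 6 genes 1 had an entry among the promoters. Some items that these choices would include are not reported here.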

Additional observations from a re-analysis of the deposited data

How the results depend on the processing

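Both FPKM columns are pooled over embryos, so leaving out an embryo could not be done. No paired analysis was possible because the table has 1 pooled value per genotype and the labels give no replicate numbers. Of 24 alternatives for the 6 repressor genes, 21 moved the log2 ratio by less than its 95% counting error, and none changed its sign. The exceptions came with 1 FPKM added to each value, which lowers the ratio of low genes by construction. The log2 ratio was then 0.88 for *Scrt1*, 1.31 for *Scrt2* and 0.70 for *Insm1*, the difference between the neuronal and mesenchymal members was 0.92, and 42 loci were 2-fold higher and 23 lower. *Scrt1* thus fell under 2-fold in that setting.

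The count of loci 2-fold higher was 118 when the filter was raised to 1 FPKM. It was 484, with 187 lower, when the filter was lowered to 0.1 FPKM, and 967, with 590 lower, with no filter. At a threshold of 1.5-fold 593 loci were higher and 205 lower, and at 3-fold 53 and 20. Of the counted loci, 77.3% were higher, against 77.7% with the median locus set to 0 and 76.0% with equal totals. Among list medians, 92 of 98 moved by less than 0.25 and 1 changed sign, that of the neural crest factors, from 0.0116 to -0.0037 with equal totals. Of 112 list counts of genes 2-fold higher, 21 moved by more than 1.5 times, and of 112 counts lower, 3 did. With 1 FPKM added, the counts higher fell from 13 to 7 for newborn neuron genes, from 4 to 2 for proneural factors, from 2 to 1 for the SNAG list, from 2 to 0 for endocrine and from 1 to 0 for sympathoadrenal genes. All but the newborn neuron count fell equally with the filter at 1 FPKM. The endocrine count rose from 2 to 4 with the filter lowered to 0.1 FPKM and to 5 without a filter, and the sympathoadrenal count from 1 to 2 in both. At 1.5-fold, counts higher rose from 13 to 22 for newborn neuron genes and from 4 to 8 for proneural factors. Those of erythroid genes rose from 5 to 10, of endocrine genes from 2 to 4, and of EMT factors from 0 to 1. Progenitor and sympathoadrenal counts each rose from 1 to 2, and the epithelial count lower from 0 to 4.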
